A study of Mus musculus with 22 samples.

Results

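Lysosomal genes, a listed set of 37 that includes Glb1, were followed across 4 groups of fibroblasts grown from mouse embryos (MEFs). Glb1 encodes the acid beta-galactosidase whose activity near neutral pH is stained as a marker of senescent cells. Each gene was read from the probe set with the highest mean level among those that the platform annotation assigns to that gene alone, and 36 of the 37 genes had such a probe set, out of 18193 genes measured in this way. Cd63, which encodes a tetraspanin of lysosomal membranes, was not analysed here.

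RNA was hybridised to Affymetrix mouse expression arrays 7 days after adenoviral infection. The 5 oncogene arrays came from cells with an inducible oncogene allele that Cre recombinase switches on. The 5 Wt1-null arrays came from Wt1f/f cells, in which Cre deletes Wt1, the gene of a zinc finger transcription factor, and the 7 double arrays came from cells given Cre in which the oncogene was switched on and Wt1 was deleted. The 5 control arrays came from MEFs given an adenovirus with GFP in place of Cre. Every oncogene, Wt1-null and double array therefore differs from the control arrays in the virus as well as in the alleles, and in comparisons with the control these cannot be told apart. Levels are log2 values normalized by RMA, so that 1 unit is a doubling, and a change is the log2 difference of group means from a limma fit over all 22 arrays, given ± its standard error (SE). A gene was called where its p-value, adjusted by the Benjamini-Hochberg method over all 18193 genes, was below 0.05.

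Lysosomes are acidic organelles that break down glycans, lipids and proteins delivered by endocytosis and autophagy. Their soluble hydrolases are tagged with mannose 6-phosphate in the Golgi and carried to the organelle by receptors, and their activity depends on a proton pump in the membrane. The transcription factor TFEB, when released from control by mTORC1, enters the nucleus and binds E-box sequences in the promoters of many lysosomal genes. Senescent fibroblasts are known for an enlarged lysosomal compartment.

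Windows of the promoters that hold the TFEB type of E-box are shown for Glb1, for the 3 other genes called in double arrays that carry it, and for the membrane genes Lamp1 and Mcoln1. Each is a window around the first match of the promoter, and the promoter holds the motif at 4 places for Lamp1, at 2 for Mcoln1, Ctsa and Ctsd and at 1 for Glb1 and Gaa. The letters are from RefSeq, build GRCm38.p6, on the strand of the gene, and capitals mark TCACGTG or its reverse complement CACGTGA, each of which contains the E-box CACGTG.
Glb1: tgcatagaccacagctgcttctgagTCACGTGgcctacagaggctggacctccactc
Gaa: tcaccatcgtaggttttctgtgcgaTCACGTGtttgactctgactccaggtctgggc
Ctsa: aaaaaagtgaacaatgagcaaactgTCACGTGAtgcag
Ctsd: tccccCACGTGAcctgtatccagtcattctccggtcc
Lamp1: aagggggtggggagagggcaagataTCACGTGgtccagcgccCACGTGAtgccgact
Mcoln1: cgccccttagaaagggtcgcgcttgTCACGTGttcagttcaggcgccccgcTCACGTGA

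The Glb1 window lies at chr9:114401004-114401060 on the plus strand, with the motif beginning 49 bases before the annotated start. The Gaa window is chr11:119267797-119267853 (plus), the Ctsa window chr2:164833735-164833772 (plus) and the Ctsd window chr7:142388041-142388077 (minus). The Lamp1 window is chr8:13159074-13159130 and the Mcoln1 window chr8:3500422-3500480, both on the plus strand. Of 32 measured lysosomal genes with a promoter in the RefSeq table, which covers 250 bases before to 50 bases after each start, 11 held TCACGTG on either strand (34.4%), against 4.29% of 27025 genes in the table. The E-box CACGTG alone was present in 37.5% of them, against 8.1% of all genes. The motif was chosen because TFEB binds such E-boxes in many lysosomal promoters, so its larger share here is not an independent result. A match is a description of these letters and does not show that a factor binds there.

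The arrays were first set against their labels. Of 10 fibroblast markers, among them the collagens Col1a1, Col1a2 and Col3a1, 10 read above the background range of 3.65 to 5.06 in every array, with 8.12 as the lowest value. Wt1 itself gave no check of its deletion, because its level was 4.59 ± 0.06 in oncogene, 4.47 ± 0.15 in Wt1-null, 4.45 ± 0.19 in double and 4.38 ± 0.10 in control arrays (SD, n = 5, 5, 7 and 5), within that range. The range was set by 3 Y-linked genes in 9 arrays that are high for Xist, which is transcribed from the inactive X chromosome. Xist was high in 0 of 5 oncogene, 2 of 5 Wt1-null, 5 of 7 double and 2 of 5 control arrays, and the X-linked members Gla, Ids and Lamp2 were called in no comparison. Over all probe sets, the array labelled Wt1-null replicate 2 was nearest to double replicate 2 (r = 0.998), not to another Wt1-null array. Whether its label is wrong, or whether it shares a source with double replicate 2, was not tested, and Wt1 gives no check. Wt1-null replicates 1 and 5 were also nearest to arrays of other groups, namely control replicate 2 (r = 0.990) and oncogene replicate 6 (r = 0.990). Double replicates 3, 4 and 6 were nearest to the oncogene arrays of the same number (r = 0.991, 0.982 and 0.993). Whether arrays of the same number share a source was not tested. Wt1-null replicates 3 and 4 correlated at 0.998 with each other and may be 1 sample, in which case the group holds 4. Averaging them left the counts of called lysosomal genes in each pair of groups and in the interaction as they were. In addition, oncogene replicate 4 and double replicate 4 stood furthest from the rest (mean r of 0.963 and 0.940).

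The mean level lay above the background range for every measured lysosomal gene but 1. That gene was Ctss, which encodes cathepsin S, a protease of antigen-presenting cells, at 4.53. The mean level of the 36 genes was 10.467 ± 0.071 in oncogene arrays, 10.297 ± 0.275 in Wt1-null arrays, 10.694 ± 0.114 in double arrays and 10.243 ± 0.177 in control arrays (SD, n = 5, 5, 7 and 5). The oncogene arrays gave 10.555, 10.446, 10.487, 10.362 and 10.487 for replicates 1, 3, 4, 5 and 6. The Wt1-null arrays gave 10.315, 10.731, 10.073, 10.049 and 10.318 for replicates 1 to 5, the double arrays 10.553 at the lowest, 10.704 at the median and 10.864 at the highest, and the control arrays 10.266, 10.044, 10.339, 10.092 and 10.472. All double arrays lay above all control arrays on this mean, and Wt1-null replicate 2 alone among the Wt1-null arrays lay within the range of the double arrays. The mean over all 18193 genes differed little, with group means of 7.72 in oncogene, 7.69 in Wt1-null, 7.72 in double and 7.71 in control arrays.

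**Figure D1:**
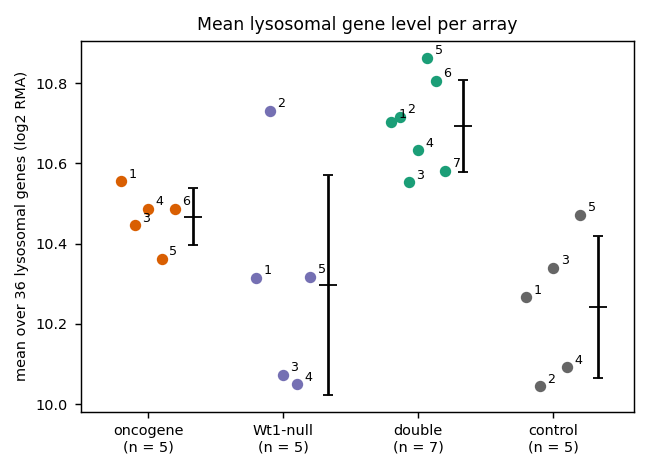
Mean log2 RMA level of the 36 measured lysosomal genes in each array (vertical axis), by group along the horizontal axis; each point is an array with its replicate number. The double arrays sit between 10.553 and 10.864, above the control arrays at 10.044 to 10.472, and Wt1-null replicate 2, at 10.731, stands apart from the other Wt1-null arrays.

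In the control and Wt1-null groups, single arrays stood at the top or bottom for many members. Oncogene replicate 4, by contrast, was the highest of its group for 13 genes and the lowest for 11. Double replicate 4 was the highest for 7 and the lowest for 9, and double replicate 5 the highest for 13 and the lowest for 3. The same counts over all genes were not made. Control replicate 5 had the highest level of its group for 22 of the 36 genes and control replicate 2 the lowest for 18. Wt1-null replicate 2 was the highest of its group for 26 genes, and Wt1-null replicate 4 the lowest for 19. A measure of RNA and labelling quality moved with some of these arrays, namely the 3' signal minus the 5' signal of the pyruvate carboxylase control probe sets. It was 2.05 in Wt1-null replicate 2, 0.85 in Wt1-null replicate 4 and 0.88 to 1.20 in the other Wt1-null arrays. In the control group it was 2.25 in replicate 5, 1.39 in replicate 2 and 1.04 to 1.65 in replicates 1, 3 and 4. Across groups it ranged from 1.15 to 2.73 in oncogene, 0.85 to 2.05 in Wt1-null, 1.22 to 2.97 in double and 1.04 to 2.25 in control arrays, and its part in the lysosomal levels was not tested. The double arrays had the highest group mean for 26 genes, the oncogene arrays for 3, the Wt1-null arrays for 2 and the control arrays for 5. The control arrays had the lowest group mean for 19 genes and the Wt1-null arrays for 12.

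In double against control arrays the lysosomal genes were higher across hydrolases, proteases and lipid-handling proteins. Of the 36 genes, 31 had a higher mean in double arrays and 5 a lower one, with a median log2 difference of 0.41 beside -0.02 over all genes. limma called 10 genes, all higher, which is 27.8% of the set, while 3.48% of all genes were called higher and 5.93% in either direction. The called genes were Tpp1, Man2b1, Gaa, Ctsd, Ctsa, Psap, Glb1, Ctsb, Npc2 and Hexa, with changes of 1.38-fold to 2.48-fold. By mean level they lay between percentiles 87.4 (Glb1) and 99.4 (Npc2) of all probe sets. The shares over all genes, here and below, also count dim genes and are not shares of genes of like level. The count was 10 without Wt1-null replicate 2, 11 without double replicate 2 and 12 without oncogene replicate 4 and double replicate 4. The share of all genes called higher moved as well, to 4.2% without Wt1-null replicate 2 and 5.19% without oncogene replicate 4 and double replicate 4. It was not counted without double replicate 2. For the 10 genes named every double array lay above every control array, as it did for 2.49% of all genes. At an unadjusted p below 0.05, 18 of the 36 genes (50%) were higher and 0 lower, beside 10.4% of all genes higher.

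Among the 14 hydrolases of glycans and glycolipids, 12 had a higher mean in double arrays and 4 were called. Glb1 was 10.09 at the lowest, 10.44 at the median and 10.92 at the highest in double arrays, against 9.50, 9.53, 9.82, 9.46 and 10.06 in control arrays. The 2 groups did not overlap, though the highest control array, replicate 5, came within 0.03 of the lowest double array. The difference for Glb1 was 0.78 ± 0.19 (SE), a 1.71-fold change with an adjusted p of 0.0190 in limma. That call did not hold without control replicate 2 (adjusted p = 0.0571) or 4 (0.0615), or within the largest of the runs of accessions treated as possible batches (0.0736), with differences of 0.73 to 0.74.

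Man2b1, the lysosomal alpha-mannosidase that trims N-glycans, read 10.55, 10.88 and 11.54 (lowest, median and highest) in double arrays and 10.02, 9.63, 9.93, 9.58 and 10.19 in control arrays. The highest control array lay below the lowest double array, and the difference was 1.08 ± 0.20 (adjusted p = 0.00358, limma). Gaa, the acid alpha-glucosidase that degrades glycogen, read 10.63, 10.78 and 11.36 in double arrays and 10.08, 9.57, 10.04, 9.75 and 10.06 in control arrays. The gap between the groups was again complete, with a difference of 0.97 ± 0.19 (adjusted p = 0.00469). Hexa, the alpha subunit of the beta-hexosaminidase that degrades GM2 ganglioside, had the smallest change of the called genes. It read 11.97, 12.12 and 12.58 in double arrays and 11.88, 11.52, 11.68, 11.60 and 11.78 in control arrays, a difference of 0.47 ± 0.12 (adjusted p = 0.0267), and its call was lost without control replicate 2, 3 or 4 (adjusted p of 0.0847, 0.0648 and 0.0763).

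The other 10 hydrolases were not called. Idua, the alpha-L-iduronidase of heparan and dermatan sulfate breakdown, lay just outside the threshold at 0.44 (adjusted p = 0.0503). Differences above 0.5 without a call were found for Arsb (0.72) and Arsa (0.51), sulfatases of dermatan sulfate and of sulfatide, for the iduronate sulfatase Ids (0.57) and for the beta-mannosidase Manba (0.52). The values were 0.32 for Naglu, an enzyme of heparan sulfate breakdown, 0.23 for the fucosidase Fuca1 and 0.21 for the beta-glucuronidase Gusb. The sialidase Neu1 (-0.03) and the alpha-galactosidase Gla (-0.26) had lower means in double arrays.

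Of the 10 proteases, 9 had a higher mean in double arrays and 4 were called. Tpp1, the tripeptidyl peptidase deficient in a childhood form of human neuronal ceroid lipofuscinosis, showed the largest difference of the 36 genes. It read 12.09, 12.78 and 13.40 (lowest, median and highest) in double arrays and 11.51, 11.34, 11.38, 11.32 and 11.86 in control arrays. The difference was 1.31 ± 0.24, a 2.48-fold change, with an adjusted p of 0.00345 in limma.

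Ctsd, the aspartic protease cathepsin D, read 13.37, 13.68 and 14.05 in double arrays and 12.61, 12.63, 13.02, 12.75 and 12.85 in control arrays, a difference of 0.88 ± 0.17 (adjusted p = 0.00417). Ctsa, the carboxypeptidase that also protects beta-galactosidase and sialidase in a shared complex, read 12.06, 12.36 and 13.01 in double arrays and 11.59, 11.53, 11.75, 11.37 and 11.76 in control arrays. Its difference was 0.81 ± 0.17 (adjusted p = 0.00819), and the groups did not overlap for either gene. Ctsb, the cysteine protease cathepsin B, read 13.50, 13.68 and 14.13 in double arrays and 13.20, 12.96, 13.13, 12.97 and 13.23 in control arrays, a difference of 0.68 ± 0.17 (adjusted p = 0.0233). The Ctsb call was lost without control replicate 2, 3 or 4 or without double replicate 5 (adjusted p of 0.0687, 0.0555, 0.0676 and 0.0547).

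Not called among the proteases were the aminopeptidase cathepsin H (Ctsh, 0.99, adjusted p = 0.136), cathepsin L (Ctsl, 0.67, adjusted p = 0.0742), cathepsin Z (Ctsz, 0.22), the asparaginyl endopeptidase Lgmn (0.21) and the collagen-degrading cathepsin K (Ctsk, 0.20). Ctss, at background, differed by -0.03.

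All 6 genes of lipid handling had a higher mean in double arrays, and 2 were called. Npc2, the soluble protein that hands cholesterol to the membrane transporter Npc1, read 13.64, 13.96 and 14.23 (lowest, median and highest) in double arrays and 13.27, 13.36, 13.37, 13.31 and 13.56 in control arrays. Its difference of 0.59 ± 0.11 carried the smallest adjusted p of the set (0.00310, limma), and its SD was 0.19 in double and 0.11 in control arrays. Psap, the precursor of the saposins that present lipids to hydrolases, read 12.77, 13.03 and 13.34 in double arrays and 12.47, 11.92, 12.30, 12.01 and 12.53 in control arrays, a difference of 0.78 ± 0.17 (adjusted p = 0.00794). The GM2 activator Gm2a (0.38), the acid ceramidase Asah1 (0.31), Npc1 (0.28) and the acid lipase Lipa (0.23) were not called.

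The 5 measured membrane genes and Tfeb gave no call. Lamp1, a major glycoprotein of the lysosomal membrane, read 13.13, 13.36 and 13.54 in double arrays and 13.21, 13.00, 13.19, 13.01 and 13.24 in control arrays, which overlap, with a difference of 0.22 ± 0.11 (adjusted p = 0.255). Cln3, a membrane protein mutated in human juvenile ceroid lipofuscinosis, differed by 0.74, the enzyme receptor Scarb2 by 0.29, the calcium channel Mcoln1 by 0.26 and Lamp2 by -0.24. Tfeb read 7.96, 8.19 and 8.82 in double arrays and 8.09, 8.27, 8.49, 8.48 and 8.49 in control arrays. The groups overlap, and the difference in Tfeb RNA was -0.02 ± 0.15 (adjusted p = 0.962).

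**Figure D2:**
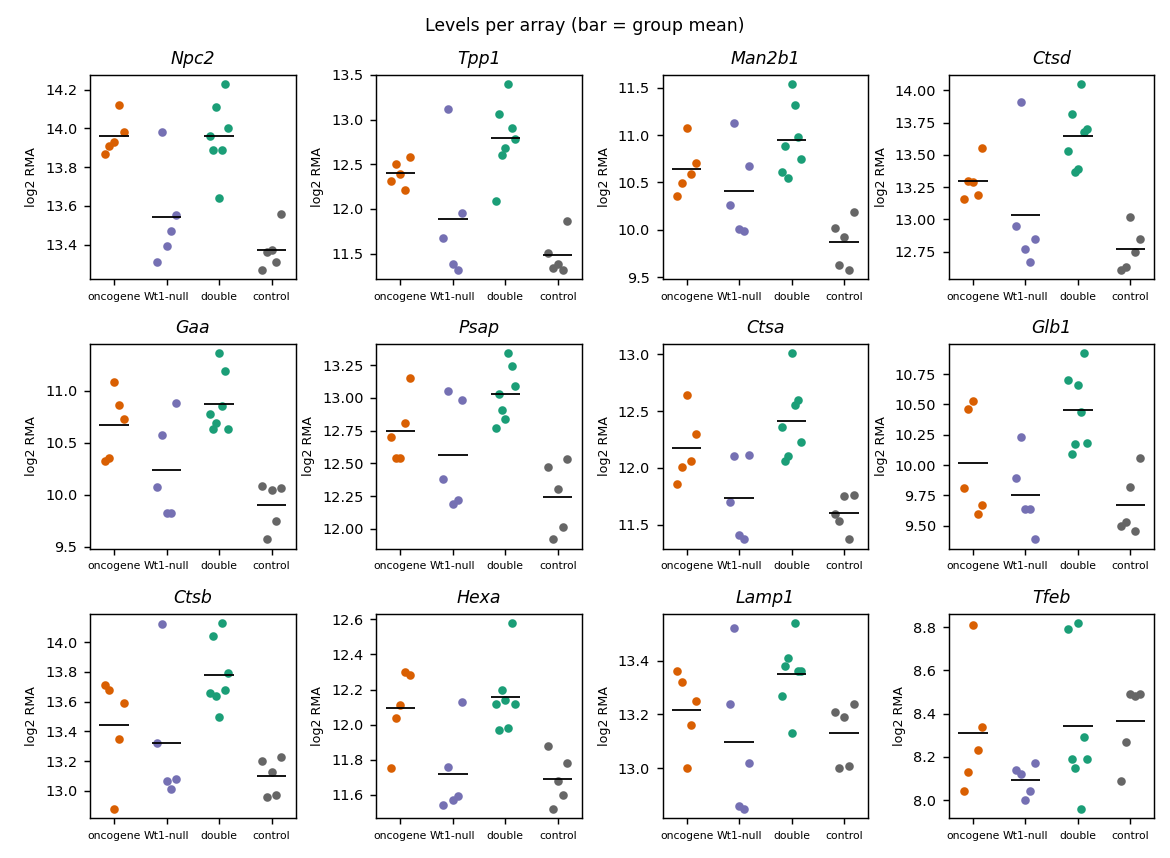
Log2 RMA level (vertical axes, scaled per gene) in each array by group for the members that the results turn on; each point is an array and each bar a group mean. The double arrays lie above the control arrays without overlap for the called genes, as for Glb1 (10.09 to 10.92 in double and 9.46 to 10.06 in control arrays), while Lamp1 and Tfeb overlap.

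Where a called gene had further probe sets, these were read as well, with p-values adjusted over 34945 probe sets. Glb1, Ctsd and Hexa have 1 probe set each. The other 7 called genes have 12 further probe sets, of which limma called 8 higher and 0 lower in double arrays. Of all 34945 probe sets, 2.82% were called higher. The 1 further probe set each of Tpp1 (1.5), Gaa (1.13) and Psap (0.72) was called, as were 3 of 4 for Ctsb (0.85, 1.25 and 1.26) and 2 of 3 for Npc2 (0.52 and 1.20). The second probe sets of Ctsa (0.02) and Man2b1 (0.18) were not called. Among genes not called by their main probe set, another probe set was called higher for Cln3 (0.44), Ctsh (1.40) and Fuca1 (0.32). Over the 23 members with further probe sets, 29 of 43 had the sign of the one used in double against control arrays. It was 27 of 43 in oncogene and 26 of 43 in Wt1-null against control arrays.

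Markers of other cell types were set beside these changes. Of 12 macrophage markers, the phagocyte sialomucin Cd68, itself a lysosomal protein, was the 1 called gene (0.80 ± 0.22, adjusted p = 0.0305, limma). Ptprc (CD45) and Itgam (CD11b) stayed within the background range, at 4.22 to 4.93 and 4.09 to 4.47 over all arrays. Adgre1 and Mrc1 reached into it at their lowest. The rest of the list read above it in every array, as Csf1r did at 6.71 to 7.67 and Laptm5 at 6.82 to 7.46. The median over all probe sets of an array was 6.23 to 6.33. A level above the background range, here and for the markers below, does not by itself show that a gene is expressed. The mean of the 12 markers ranged from 5.886 to 6.101 in oncogene, 5.842 to 5.980 in Wt1-null, 5.979 to 6.308 in double and 5.811 to 6.024 in control arrays. The fibroblast markers Pdgfra (1.78) and Fn1 (0.91) and the endothelial kinase Tek (1.29) were also called higher in double arrays. By mean, 6 of the 10 fibroblast markers were higher and 4 lower, with a median of 0.02. In limma, 1 of them was lower at an unadjusted p below 0.05. The fibroblast marker Lum averaged 11.49 in double and 12.37 in control arrays. Of 5 endothelial markers, 2 had a higher mean and 3 a lower one, with a median of -0.06. The endothelial marker Pecam1 lay within the background range in every array, and the endothelial marker Kdr lay above it in every array (6.42 to 7.50). Of 5 epithelial markers limma called 0, with 1 at an unadjusted p below 0.05. That was the keratin Krt18, which averaged 7.56 in double and 5.92 in control arrays (1.64 ± 0.75, adjusted p = 0.220). The epithelial cadherin Cdh1 stayed within the background range. Epcam (7.93 to 9.30), Krt19 (7.08 to 10.22), Krt8 (6.30 to 7.65) and Krt18 (5.25 to 11.08) read above it in every array. The mean of the 5 markers ranged from 6.358 to 7.576 in oncogene, 6.542 to 7.145 in Wt1-null, 6.431 to 7.952 in double and 6.511 to 7.161 in control arrays. Of 5 osteoclast and 2 adipocyte markers 0 passed either threshold in double against control arrays. In such bulk RNA, a shift in the cells present cannot be told apart from a change per cell, and its part in these results was not tested.

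For each of the 10 genes called in double arrays, the mean of the oncogene arrays lay between those of the double and the control arrays. In oncogene against control arrays 29 of 36 genes had a higher mean, with a median difference of 0.19 beside -0.03 over all genes. limma called 1 gene, Npc2, which is 2.8% of the set beside 1.32% of all genes called higher. At an unadjusted p below 0.05, 9 genes (25%) were higher and 0 lower, against 7.55% of all genes higher. For 7 genes, Npc2, Tpp1, Man2b1, Gaa, Ctsd, Ctsa and Psap, every oncogene array lay above every control array, as for 3.13% of all genes.

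Npc2 read 13.87, 13.91, 13.93, 14.12 and 13.98 in oncogene arrays and 13.27, 13.36, 13.37, 13.31 and 13.56 in control arrays. Its difference of 0.59 ± 0.12 (adjusted p = 0.0112, limma) had the same size as that in double arrays. Tpp1 read 12.31, 12.50, 12.39, 12.21 and 12.58 in oncogene arrays and differed from control by 0.92 ± 0.26 (adjusted p = 0.0740). Man2b1 read 10.36, 10.49, 11.07, 10.59 and 10.70 in oncogene arrays (0.77 ± 0.22, adjusted p = 0.0695), and Gaa 10.32, 10.35, 11.08, 10.86 and 10.73 (0.77 ± 0.21, adjusted p = 0.0574). These 3 genes missed the threshold although their oncogene and control arrays did not overlap.

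Glb1 was spread widely in oncogene arrays, at 9.81, 10.46, 10.53, 9.60 and 9.67. Replicates 3 and 4 lay within the range of the double arrays and replicates 1, 5 and 6 within that of the control arrays, and the difference from control was 0.34 ± 0.21 (adjusted p = 0.475). Lamp1 (0.09 ± 0.11) and Tfeb (-0.05 ± 0.16) were not called, with Lamp1 at 13.36, 13.32, 13.00, 13.16 and 13.25 and Tfeb at 8.04, 8.13, 8.81, 8.23 and 8.34 in oncogene arrays. The count moved with single arrays. Without Wt1-null replicate 2 limma called 5 genes (Npc2, Tpp1, Ctsd, Man2b1 and Gaa), beside 1.69% of all genes called higher, without double replicate 1 or double replicate 4 it called 3, and without oncogene replicate 1 or Wt1-null replicate 5 it called 2. The share of all genes was not counted in the fits that gave 3 or 2.

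In Wt1-null against control arrays 20 genes had a higher mean and 16 a lower one, with a median difference of 0.02 beside -0.05 over all genes. limma called 0 of the 36 genes, beside 0.104% of all genes called in either direction. At an unadjusted p below 0.05 it gave 1 gene higher and 1 lower, beside 4.2% and 8.5% of all genes. Gla, the alpha-galactosidase deficient in human Fabry disease, read 8.74, 9.17, 8.0, 8.05 and 7.75 in Wt1-null arrays and 9.28, 9.34, 9.64, 9.40 and 9.31 in control arrays. Every Wt1-null array lay below every control array, as for 4.19% of all genes, with a difference of -1.05 ± 0.35 (adjusted p = 0.240, limma).

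Man2b1 read 10.26, 11.13, 10.01, 9.99 and 10.67 in Wt1-null arrays, against the control values given above, a difference of 0.54 ± 0.22 (adjusted p = 0.325). Ids read 10.71, 11.55, 11.06, 10.98 and 11.00 in Wt1-null arrays and 10.40, 9.99, 10.18, 10.29 and 10.94 in control arrays (0.70 ± 0.39), and Gusb 10.88, 10.98, 10.42, 10.39 and 10.70 against 10.90, 10.73, 10.96, 10.79 and 11.20 (-0.24 ± 0.13). The groups overlap for these 3 genes. Glb1 read 9.89, 10.23, 9.64, 9.64 and 9.39 in Wt1-null arrays, overlapping the control range, with a difference of 0.08 ± 0.21 that was -0.03 without Wt1-null replicate 2. Lamp1 (-0.03 ± 0.11; 13.24, 13.52, 12.86, 12.85 and 13.02) and Tfeb (-0.27 ± 0.16; 8.14, 8.12, 8.0, 8.04 and 8.17) were not called.

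**Figure D3:**
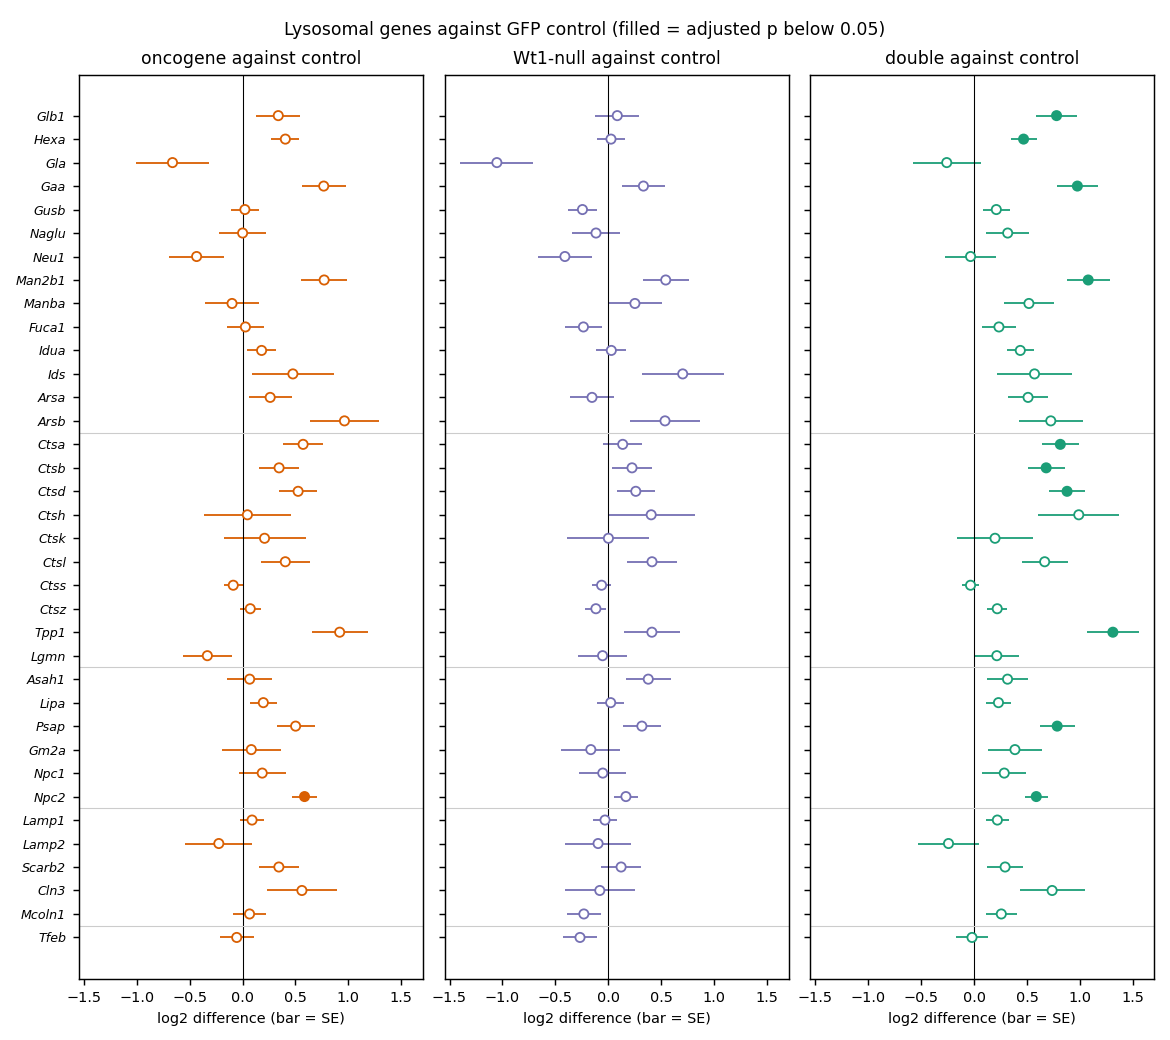
Log2 difference from the control arrays for each of the 36 lysosomal genes (rows), in 1 panel per comparison; points are fitted differences, bars their SE, and filled points have an adjusted p below 0.05. The 10 filled points of the double panel all lie right of 0, the oncogene panel has 1 (Npc2) and the Wt1-null panel has 0.

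The 3 comparisons with the control share the same 5 control arrays, so their differences are not independent. A limma F test over the 4 groups, which uses every array once, called 8 genes (Npc2, Tpp1, Gaa, Ctsd, Man2b1, Ctsa, Psap and Hexa), beside 3.02% of all genes. Glb1 was outside it (adjusted p = 0.0603). The count was 2 without control replicate 2 or 4, and 5 without control replicate 3 or double replicate 5. The share of all genes was not counted in these fits. The calls of Psap and Hexa held under 13 and 10 of 34 alternative settings, and those of Gaa, Ctsd, Man2b1 and Ctsa under 27 to 31. Psap and Hexa were lost with Wt1-null replicates 3 and 4 averaged, and Hexa without oncogene replicate 4 and double replicate 4.

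The remaining pairs of groups all received Cre. No Wt1-null array, however, shares a run treated as a possible batch with any double array. In double against Wt1-null arrays the run and the alleles therefore cannot be told apart. In double against oncogene arrays 32 of 36 genes had a higher mean in double arrays, with a median difference of 0.22 beside 0.01 over all genes. limma called 0 of them, and 0% of all genes. At an unadjusted p below 0.05, 5 genes were higher (13.9%) and 0 lower, beside 1.32% of all genes higher. The arrays of the groups overlap for every lysosomal gene, and those of 0.033% of all genes stayed apart with double arrays higher.

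Of those 5 genes, Manba read 7.17, 7.89 and 8.29 (lowest, median and highest) in double arrays and 7.53, 7.21, 6.57, 7.05 and 7.30 in oncogene arrays (0.62 ± 0.23). Lgmn read 10.41, 10.84 and 10.96 in double arrays and 10.96, 10.15, 9.58, 9.95 and 10.40 in oncogene arrays (0.55 ± 0.21), and Ctsh 8.82, 9.79 and 10.64 in double arrays and 8.65, 9.88, 8.79, 8.16 and 8.48 in oncogene arrays (0.94 ± 0.38). For Lgmn, 4 of 5 oncogene arrays lay below all double arrays, and replicate 1 was at their top. Glb1 differed by 0.44 ± 0.19 between double and oncogene arrays, Ctsd by 0.35 ± 0.17, Lamp1 by 0.13 ± 0.11 and Tfeb by 0.03 ± 0.15, each with an adjusted p of 0.9997 in limma. The difference for Npc2 was 0.00 ± 0.11.

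In double against Wt1-null arrays 33 of 36 genes had a higher mean in double arrays, with a median difference of 0.43 beside 0.04 over all genes. limma called 0 of the 36, beside 0.0824% of all genes in either direction, while 21 genes (58.3%) were higher and 0 lower at an unadjusted p below 0.05, against 9.62% of all genes higher. No lysosomal gene had groups that stayed apart, as 0.676% of all genes did with double arrays higher. The array labelled Wt1-null replicate 2 decided this count. Without it limma called 15 of the 36 genes, all higher, beside 3.24% of all genes called higher. Among the Wt1-null arrays left, replicates 3 and 4 may be 1 sample. No fit both left out replicate 2 and averaged replicates 3 and 4.

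The 4 genes with the smallest p over all arrays show how Wt1-null replicate 2 sits. Ctsa read 11.70, 12.10, 11.41, 11.37 and 12.11 in Wt1-null arrays, against 12.06 to 13.01 in double arrays (0.68 ± 0.17, adjusted p = 0.0885). Npc2 read 13.31, 13.98, 13.39, 13.47 and 13.55 in Wt1-null arrays (0.42 ± 0.11, adjusted p = 0.0885), and Tpp1 11.67, 13.12, 11.38, 11.32 and 11.96 (0.90 ± 0.24, adjusted p = 0.110). For Npc2 and Tpp1, replicates 1, 3, 4 and 5 lay below every double array and replicate 2 lay among them.

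Ctsd showed the same order, at 12.95, 13.91, 12.77, 12.67 and 12.85 in Wt1-null arrays (0.62 ± 0.17, adjusted p = 0.110), and without replicate 2 its difference was 0.84 ± 0.12 (adjusted p = 0.000650, limma). Without that array Tpp1 differed by 1.21, Glb1 by 0.81 (adjusted p = 0.0206), against 0.69 ± 0.19 (0.116) with it, and Lamp1 by 0.36 (adjusted p = 0.0355), against 0.25 ± 0.11 (0.278) with it. The 15 genes were Ctsd, Tpp1, Npc2, Ctsb, Mcoln1, Arsa, Ctsa, Gusb, Glb1, Fuca1, Man2b1, Ctsz, Lamp1, Gaa and Psap. Tfeb differed by 0.25 ± 0.15 over all arrays and was not among them.

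**Figure D4:**
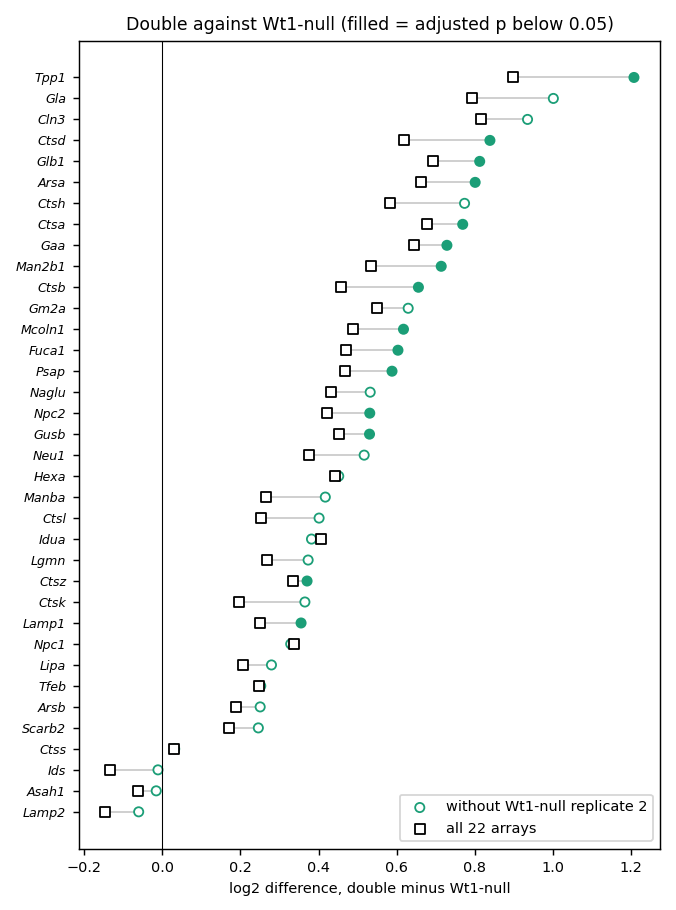
Log2 difference of double minus Wt1-null arrays for each lysosomal gene (rows), with squares for the fit of all 22 arrays and circles for the fit without Wt1-null replicate 2; filled symbols have an adjusted p below 0.05. No square is filled, and 15 circles are, among them Ctsd at 0.84 and Glb1 at 0.81. Wt1-null replicates 3 and 4, which may be 1 sample, were kept as separate arrays in both fits.

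The interaction asks whether switching on the oncogene moved a gene by more where Wt1 was deleted, as double minus Wt1-null less oncogene minus control. It contains the control arrays, and with them the change of virus. limma called 0 of the 36 genes, beside 0.011% of all genes, and 3 were higher and 0 lower at an unadjusted p below 0.05, beside 5.75% of all genes higher. Gla averaged 8.73 in oncogene, 8.34 in Wt1-null, 9.14 in double and 9.40 in control arrays, an interaction of 1.45 ± 0.47 (adjusted p = 0.579). Gusb (0.43 ± 0.18) and Neu1 (0.81 ± 0.35) followed, then Mcoln1 (0.42 ± 0.22), and the values for Glb1, Lamp1 and Tfeb were 0.36 ± 0.28, 0.16 ± 0.16 and 0.30 ± 0.22. For the 10 genes called in double against control arrays, the interaction ran from -0.24 for Man2b1 to 0.36 for Glb1, with SEs of 0.16 to 0.36.

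Other genes of the same organelle and of its supply were read from listed groups. Of 23 further lysosomal hydrolases and membrane proteins, 17 had a higher mean in double than in control arrays, with a median of 0.25, and limma called 5 higher and 0 lower. For this and the lists that follow, 3.48% of all genes were called higher and 2.45% lower in double against control arrays, and 1.32% higher and 0.72% lower in oncogene against control arrays, so that a single call in a list of 8 to 17 genes is not read as a result about that list. Cathepsin F (Ctsf, 1.93 ± 0.25, adjusted p = 0.000229) changed most, followed by the aspartylglucosaminidase Aga (1.13 ± 0.24), while the hyaluronidase Hyal2 (0.58 ± 0.13) and the palmitoyl thioesterase Ppt1 (0.58 ± 0.16) were also called. In oncogene against control arrays Ctsf was called higher (1.24 ± 0.27) and Ctsc, the dipeptidyl peptidase cathepsin C, lower (-1.75 ± 0.44).

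Of 15 subunits of the proton pump, the accessory subunit Atp6ap1 was called in double against control arrays (0.55 ± 0.11), and the median was 0.11. Of 12 genes that sort enzymes to lysosomes, the mannose 6-phosphate receptor Igf2r was called (1.30 ± 0.36), with a median of 0.03. Among 16 genes of the TFEB relatives and of their control by mTORC1, the factor Mitf (1.11 ± 0.30) and the kinase Mtor (0.98 ± 0.17) were called higher in double arrays, and Mtor also in oncogene arrays (0.96 ± 0.18). Of 17 autophagy genes Gabarapl2 was higher in double arrays (0.47 ± 0.13), and Atg5 was lower in double (-0.90 ± 0.21) and in oncogene arrays (-1.06 ± 0.23). Of 8 senescence genes measured, Igfbp3 was called higher in double arrays (2.63 ± 0.59, adjusted p = 0.0120, limma). It encodes a secreted binding protein of insulin-like growth factors. By mean, 4 of the 8 were higher and 4 lower, with 2 higher and 1 lower at an unadjusted p below 0.05. The list holds cell cycle inhibitors, such as Cdkn1a, beside the proliferation marker Mki67. It was not sorted by the direction expected in senescent cells, so the split is not a measure of senescence, which was not tested.

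The promoter motif was not confined to the genes called in double against control arrays. Of the 9 called genes with a promoter in the table, 4 held TCACGTG (Glb1, Gaa, Ctsa and Ctsd). Tpp1, Man2b1, Psap, Npc2 and Hexa did not within the window searched, while Lamp1, with 4 places, and Mcoln1, with 2, were not called.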

How the data were processed

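The authors deposited log2 values from 22 arrays, normalized by RMA in Affymetrix Expression Console, per the submitters' processing notes; the version is not given in the sources used here. RMA sets all arrays to a common distribution, hides changes shared by most transcripts and compresses differences near background. A level depends on the probes as well as on the transcript. The design counts 6 oncogene arrays; 5 are analysed, and the oncogene is not reported here by name. No scan dates were used here; the accessions fall into runs that were treated as possible batches. No Wt1-null array shares such a run with a double array. Of the control arrays, replicate 1 alone shares a run with Wt1-null arrays. No label ties a replicate to its own embryo or culture, and p-values therefore measure only the spread between these arrays, which may be technical. The number of arrays limits the precision.

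Of 34945 probe sets assigned to 1 gene, the one with the highest mean stood for each of 18193 genes. Group means were fitted with limma 3.58.1 in R 4.3.3 (lmFit, eBayes, all arrays), with Benjamini-Hochberg adjustment over all genes. The fit was tested on simulated data. The members and the lists were chosen with earlier results of these data known. Genes named are the called members, at least 4 members per comparison by smallest p, Glb1, Lamp1 and Tfeb throughout, and up to 4 called genes of each other list. The alternatives were the mean of all probe sets, every probe set, a filter at a mean of 6, repeated quantile normalization, median centring, another variance model, array weights, only the groups compared, the replicate number or the accession run as a block, the largest run alone, leaving out each array, leaving out oncogene 4 with double 4, and averaging Wt1-null 3 and 4. RefSeq promoters were searched for the motif on both strands.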

Additional observations from a re-analysis of the deposited data

Results flagged for a closer look

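Of 148 groups of values tested, 9 held an array far from the others of its group by Dixon's rule, and chance alone flags about 1 in 20. Wt1-null replicate 2 was high for Ctsb (14.12, others 13.01 to 13.32) and Ctsd (13.91, others 12.67 to 12.95). Oncogene replicate 4 was low for Ctsl (13.01, others 13.82 to 14.15) and high for Npc1 (9.13, others 8.34 to 8.47). Double replicate 4 was low for Asah1 (11.00, others 11.81 to 12.31) and for Lamp2 (10.79, others 12.65 to 12.95). For the control probe sets of pyruvate carboxylase, the 3' end read above the 5' end by 2.73 in oncogene replicate 4 and by 2.97 in double replicate 4 on the log2 scale, more than in any other array. The same difference did not single out these 2 arrays for Gapdh (0.11 and 0.12, with 0.21 in double replicate 2). Nor did it for actin (0.33 and 0.28, with 0.57 in double replicate 3). The part of RNA quality in the flagged values was not tested. The remaining such values were Hexa in double replicate 6 (12.58, others 11.97 to 12.20), Lgmn in control replicate 2 (9.78, others 10.63 to 10.79) and Npc1 in Wt1-null replicate 5 (9.19, others 7.99 to 8.29).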

How the results depend on the processing

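The 36 alternative settings included 22 that left out 1 array each. In double against control arrays 7 genes (Npc2, Tpp1, Man2b1, Ctsd, Gaa, Psap and Ctsa) kept the call under all 36, and so did Npc2 in oncogene against control arrays (adjusted p of 2.79e-05 to 0.0391, limma). The calls lost for Glb1, Ctsb and Hexa without an array are given above, and with the replicate number as a block Glb1 (adjusted p = 0.0503) and Hexa (0.0527) also missed the threshold. Labels do not pair the samples: deviations of same-numbered arrays correlated at -0.471 to 0.773, so the replicate block is an alternative only, and it moved the count in double against control arrays to 9.

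Array weights raised every count but that of double against oncogene (0): to 15 genes in oncogene against control (13 higher; 24.3% of all genes called either way), 9 for Wt1-null against control (2 higher; 33.1%), 19 for double against control (33.2%), 23 for double against Wt1-null (19.2%), 6 for the interaction (15.1%) and 28 by the F test (46.4%). The largest weights went to Wt1-null replicate 4 (3.42), control replicate 4 (3.38) and Wt1-null replicate 3 (3.35), and the smallest to double replicate 4 (0.117). As Wt1-null replicates 3 and 4 may be 1 sample, their weights may be too high. The oncogene against control count was 2 with the filter on dim genes, 5 with only the groups compared (2.59% of all genes called higher), 4 within the largest accession run and 1 to 5 with an array left out. Wt1-null against control gave 1 (lower) with only the groups compared, beside 3.29% of all genes called either way. Leaving out 1 array gave 7 to 13 calls in double against control, 0 to 15 in double against Wt1-null and 2 to 12 in the F test, which also gave 2 with the replicate block and 3 or 5 with the accession run as a fixed or random block. The share of all genes called was not counted with the filter on dim genes, in the largest run or with a block. With 1 array left out it was counted only for Wt1-null replicate 2, and not for the F test. The causes of these shifts in count were not tested.

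Changes near 0 turned sign, and some larger Tfeb changes did so with the accession run as a fixed block. Glb1 in Wt1-null against control ranged from -0.034 to 0.181 with an array left out, and Lamp1 from -0.137 to 0.030 (0.029 with Wt1-null 3 and 4 averaged). Tfeb ranged from -0.181 to 0.012 in oncogene against control, from -0.101 to 0.043 in double against control (0.007 with the replicate block) and from -0.046 to 0.160 in double against oncogene (-0.063 with array weights, -0.029 with the fixed accession block, -0.033 in the largest run). With the fixed accession block Tfeb was 0.003 for Wt1-null against control (-0.27 in the main fit). It was -0.096 for double against Wt1-null (0.25 in the main fit) and -0.033 for the interaction (0.30 in the main fit). The median over the 36 genes moved by less than 0.177, the SD of the control arrays, under every setting, though not always by less than the SD of 0.071 in oncogene or 0.114 in double arrays. With the mean of all probe sets it was 0.267 in double against control and 0.091 in oncogene against control. The median for Wt1-null against control was -0.063 with array weights and -0.040 without Wt1-null replicate 2, and in the interaction it ran from 0.084 to 0.277. For Ctss, at background, no change could be measured.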
